A study of Mus musculus with 18 samples.

Results

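The C-type lectin pattern receptors of myeloid cells were followed in macrophages sorted from colon cancer metastases in the mouse liver. The set was a fixed list of symbols, Clec4a1, Clec4a2, Clec4a3, Clec4b1, Clec4d, Clec4e, Clec4n, Clec5a, Clec7a and Clec12a, and all 10 were found among the 13759 genes of the macrophage table. The comparison was between F4/80high and F4/80low cells, with 3 libraries in each group. In F4/80high cells the activating receptors Clec4e, Clec7a, Clec4d and Clec4n were at least 2-fold lower, while the inhibitory receptors Clec12a and Clec4a2 and their relative Clec4a1 were modestly higher.

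Liver metastases had been induced in female mice by injecting MC38, a murine colon carcinoma cell line, into the splenic tissue. The methods of the study give C57BL/6J mice 8 to 10 weeks of age and an analysis of MC38 livers 20 days after the injection. Both macrophage groups came from these metastases as lineage-negative CD45+CD11b+ cells and differed only in the F4/80 gate, so neither carried a transgene, a deletion or a treatment that the other lacked. The other 12 of the 18 samples were sorted NKp46+ lymphocytes, which are described at the end. Nothing in the labels says whether the 3 libraries of a group came from separate mice or pools, so p-values measure the spread between these libraries, which may be partly technical.

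C-type lectin receptors bind sugars and lipids of microbes and ligands released by dying cells. Activating members carry a tyrosine motif of the ITAM type, or borrow one from the adaptors FcRgamma (Fcer1g) and DAP12 (Tyrobp), and recruit the kinase Syk, which signals through PKCdelta and the Card9-Bcl10-Malt1 complex to NF-kappaB and cytokine genes. Inhibitory members carry an ITIM, which recruits phosphatases such as SHP-1 (Ptpn6) and restrains that signal. Monocytes, macrophages, neutrophils and dendritic cells all use these receptors.

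The libraries held 21278959 to 32267015 estimated counts. Levels are given as CPM, estimated counts scaled to a common total per library, and adjusted between libraries by the trimmed mean of M values (TMM). The gate was visible in Adgre1, the gene of F4/80, at 958 ± 187 CPM in F4/80high and 146 ± 19.0 CPM in F4/80low cells (SD, n = 3 each). Of 10 macrophage markers, 8 were higher in F4/80high cells and 2 were not called, and their summed level was 22177 to 30261 CPM against 7444 to 9472 CPM. Markers of other cells moved with the gate. Over all genes, 27.8% were called higher and 27.1% lower in F4/80high cells. Of 9 classical monocyte markers, 8 were lower and 1 was higher in F4/80high cells, with sums of 1070 to 1329 CPM against 2677 to 3065 CPM. The higher one was F13a1, at 583 ± 172 against 196 ± 59.6 CPM. Ccr2, among the lower ones, was at 463 ± 53.9 against 1371 ± 19.0 CPM. Of 9 conventional dendritic cell markers, 8 were lower, and their sums were 26.9 to 34.5 CPM in F4/80high against 502 to 871 CPM in F4/80low cells. Cd209a was at 1.93 against 128 CPM, Ccr7 at 3.27 against 211 CPM and Batf3 at 12.6 against 23.5 CPM. Of 8 neutrophil markers in the table, 7 were lower in F4/80high cells and 1 was not called. Their sums overlapped, at 74.0 to 105 CPM in F4/80high and 99.1 to 205 CPM in F4/80low cells. Csf3r, the most abundant of them, was not called, at 85.7 ± 15.7 against 75.2 ± 8.67 CPM (edgeR adjusted p = 0.306). Ngp, a neutrophil granule protein gene, was at 0.0450, 0 and 0 CPM in the F4/80high libraries. In F4/80low replicates 1 to 3 it was at 51.4, 1.30 and 5.06 CPM, so F4/80low replicate 1 stood apart for this gene. Mmp8, another marker of this list, was highest in F4/80low replicate 3, at 7.16, 6.39 and 17.5 CPM in replicates 1 to 3. The part of monocytes, dendritic cells and neutrophils in the receptor differences was not tested, and in bulk RNA fewer cells of a type and less RNA per cell cannot be told apart.

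All 10 genes lie on chromosome 6 of the GRCm39 build, in the GENCODE vM39 annotation. The Dectin-2 cluster spans chr6:122896122-123266829 and holds, in genome order, Clec4a1, Clec4a3, Clec4a4, Clec4b1, Clec4a2, Clec4b2, Clec4n, Clec4d and Clec4e. The Dectin-1 cluster, at chr6:129319654-129449742, begins with Clec12a and ends with Clec7a. Clec5a stands alone at chr6:40551234-40562773. The letters just before 4 of the start sites are shown because these receptors were called lower in F4/80high cells and their windows hold no annotated exon. They are 250 bases before the RefSeq start (sequences from the RefSeq promoter table, placed here by exact match to GRCm39), and capitals mark GAGGAA on either strand, the core motif of PU.1, a transcription factor that specifies myeloid cells, and TTNNGCAA, a C/EBP motif.
Clec4e, chr6:123266831-123267080, minus strand: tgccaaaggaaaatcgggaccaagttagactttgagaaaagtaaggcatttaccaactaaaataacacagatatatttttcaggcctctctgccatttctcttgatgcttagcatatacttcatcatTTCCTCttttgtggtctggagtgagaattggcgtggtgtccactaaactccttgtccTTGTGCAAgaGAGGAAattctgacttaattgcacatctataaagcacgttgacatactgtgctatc
Clec7a, chr6:129449743-129449992, minus strand: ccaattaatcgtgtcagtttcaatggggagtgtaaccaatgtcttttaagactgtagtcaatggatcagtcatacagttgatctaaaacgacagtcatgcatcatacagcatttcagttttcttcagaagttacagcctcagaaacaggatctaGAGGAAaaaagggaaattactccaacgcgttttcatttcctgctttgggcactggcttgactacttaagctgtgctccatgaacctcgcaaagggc
Clec4d, chr6:123238816-123239065, plus strand: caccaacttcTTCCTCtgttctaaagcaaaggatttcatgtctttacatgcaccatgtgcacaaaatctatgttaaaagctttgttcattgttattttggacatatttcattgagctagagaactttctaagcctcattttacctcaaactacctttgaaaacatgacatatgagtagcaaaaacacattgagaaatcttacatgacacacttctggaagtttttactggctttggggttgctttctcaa
Clec4b1, chr6:123026671-123026920, plus strand: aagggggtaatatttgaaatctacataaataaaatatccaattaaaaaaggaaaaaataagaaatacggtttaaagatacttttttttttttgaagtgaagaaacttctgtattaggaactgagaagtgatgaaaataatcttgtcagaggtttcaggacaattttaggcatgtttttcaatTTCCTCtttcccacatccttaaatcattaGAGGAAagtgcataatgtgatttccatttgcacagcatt

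RefSeq promoter windows were matched for 9 of the 10 receptors (Clec4n had no entry), 2 of which had 2 windows each. GAGGAA, in either direction, stood in the 250 bases of 8 of these 9 receptors, all but Clec4a2, and in 23.3% of all 32851 windows of that length. A receptor was counted if any of its windows matched, whereas the share over all genes counts single windows. Of the 2 windows of Clec4a3, only the second matched. The AP-1 motif TGANTCA was found in Clec12a alone, against 6.75% of all windows. TTNNGCAA was found in Clec4e and Clec12a, against 9.56%. No match of one motif overlapped a match of another. These are matches of letters, and the windows of Clec4a1, Clec4a2, Clec4a3, Clec5a and Clec12a overlap annotated exons in part or, for Clec12a, entirely, because GENCODE places transcript starts further upstream. GAGGAA was present at receptors that were higher (Clec4a1, Clec12a), lower (Clec4e, Clec7a) and not called (Clec4a3).

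Across all genes, 27.8% were called higher and 27.1% lower in F4/80high cells by edgeR's quasi-likelihood test at an adjusted p below 0.1. Of the 10 receptors, 3 were called higher, 6 lower and 1 was not called, so 9 were called in either direction, where 54.9% of all genes were. Without a scaling factor the split of calls over all genes moved from 50.6% to 64.9% higher and the median log2 difference of all genes from 0.01 to 0.16. With a minimum of 2-fold, 4 of 10 receptors were called lower, against 11% of all genes, and 0 of 10 were called higher, against 11.1%. The groups did not overlap for 9 of the 10, with 3 higher (29.8% of all genes) and 6 lower (28.6%).

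**Figure D1:**
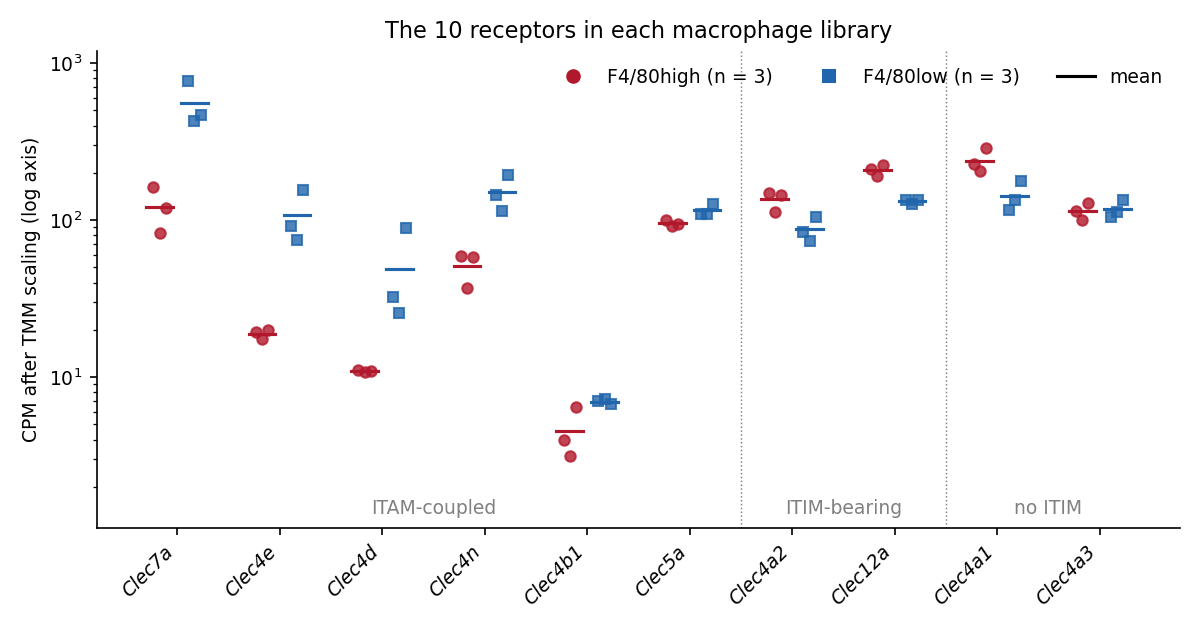
CPM after TMM scaling (log axis) of each receptor in each library, F4/80high as red circles and F4/80low as blue squares (n = 3 each), with bars at the means. The groups do not overlap for 9 of the 10 receptors, and those of Clec4a3 do.

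Clec7a encodes Dectin-1, a receptor for fungal beta-glucan that carries its own ITAM-like motif. Its level was 163, 83.3 and 120 CPM in F4/80high replicates 1 to 3 and 771, 428 and 469 CPM in F4/80low replicates 1 to 3. Every F4/80low library was above every F4/80high library, and F4/80low replicate 1 was the highest of all. The log2 difference was -2.19 (SE 0.29), with an edgeR adjusted p of 0.000472. Only 7.76% of all genes differed by more, in either direction.

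Clec4e (Mincle), which senses mycobacterial glycolipid and the nuclear protein SAP130 of dead cells, had the widest difference of the 10. It was at 19.3, 17.6 and 19.9 CPM in F4/80high and at 92.3, 74.5 and 155 CPM in F4/80low cells. The F4/80high libraries lay close together, far under the lowest F4/80low library. The log2 difference was -2.50 (SE 0.25, edgeR adjusted p = 0.000110). Clec4d encodes MCL, which pairs with Mincle at the cell surface. It was at 11.2, 10.8 and 10.9 CPM in F4/80high and at 32.2, 25.6 and 88.5 CPM in F4/80low cells. F4/80low replicate 3 was well above the other two, and it carried much of the size of the difference. The log2 difference of -2.15 (SE 0.43, edgeR adjusted p = 0.00378) was -1.40 without that library, with an adjusted p of 0.000157.

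Clec4n (Dectin-2), a receptor for fungal mannan, was at 59.3, 36.8 and 57.9 CPM in F4/80high and at 145, 114 and 193 CPM in F4/80low cells. The groups did not overlap, and the log2 difference was -1.55 (SE 0.23, edgeR adjusted p = 0.000817). Clec4b1 (DCAR), a further FcRgamma partner, was the scarcest of the 10, with 88 to 213 estimated counts per library. Its levels were 3.96, 3.15 and 6.45 CPM in F4/80high and 6.99, 7.21 and 6.70 CPM in F4/80low cells. F4/80high replicate 3 came close to the lowest F4/80low library, and the spread within F4/80high was the wider one. Its log2 difference of -0.62 (SE 0.26, edgeR adjusted p = 0.0830) passed the threshold with all libraries but not when F4/80high replicate 1 or 2, or any one F4/80low library, was left out, with adjusted p-values of 0.137 to 0.199, nor without a scaling factor (log2 difference -0.48, adjusted p = 0.148). Together the 4 FcRgamma-coupled receptors summed to 68.3 to 95.1 CPM in F4/80high and 222 to 443 CPM in F4/80low libraries.

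Clec5a (MDL-1), which signals through DAP12, stood apart from these in size. It was at 100, 91.4 and 94.9 CPM in F4/80high and at 109, 110 and 127 CPM in F4/80low cells. The groups were separated by a narrow gap, and the log2 difference was -0.27 (SE 0.09, edgeR adjusted p = 0.0342). The call was lost without F4/80low replicate 3 (log2 difference -0.20, adjusted p = 0.130) and without a scaling factor (-0.13, adjusted p = 0.248).

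Clec12a (MICL), an ITIM receptor for uric acid crystals of dead cells, went the other way. It was at 213, 192 and 223 CPM in F4/80high and at 134, 127 and 134 CPM in F4/80low cells. Both groups were tight and did not overlap, and the log2 difference was 0.67 (SE 0.09, edgeR adjusted p = 0.000393). Clec4a2 (DCIR), an ITIM receptor of the Dectin-2 cluster, was at 149, 112 and 145 CPM against 83.6, 73.7 and 105 CPM. F4/80high replicate 2 was only a little above F4/80low replicate 3, and the log2 difference was 0.63 (SE 0.15, edgeR adjusted p = 0.0101).

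Clec4a1 and Clec4a3 are close relatives of Clec4a2 in the same cluster whose tails lack the ITIM. Clec4a1 was at 227, 205 and 287 CPM in F4/80high and at 116, 135 and 177 CPM in F4/80low cells, with no overlap and a log2 difference of 0.75 (SE 0.18, edgeR adjusted p = 0.00842). Clec4a3 was at 115, 101 and 129 CPM against 104, 113 and 135 CPM. Its groups overlapped throughout, and its log2 difference of -0.03 (SE 0.13, edgeR adjusted p = 0.867) had 95.3% of all genes above it in size. Its sign turned to 0.12 without a scaling factor, to 0.06 without F4/80high replicate 2 and to 0.09 without F4/80low replicate 3. The Clec4a genes resemble each other in sequence, as do Clec4b1 and Clec4b2, so their estimated counts depend on how shared reads were divided, and the effect of that division was not tested.

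**Figure D2:**
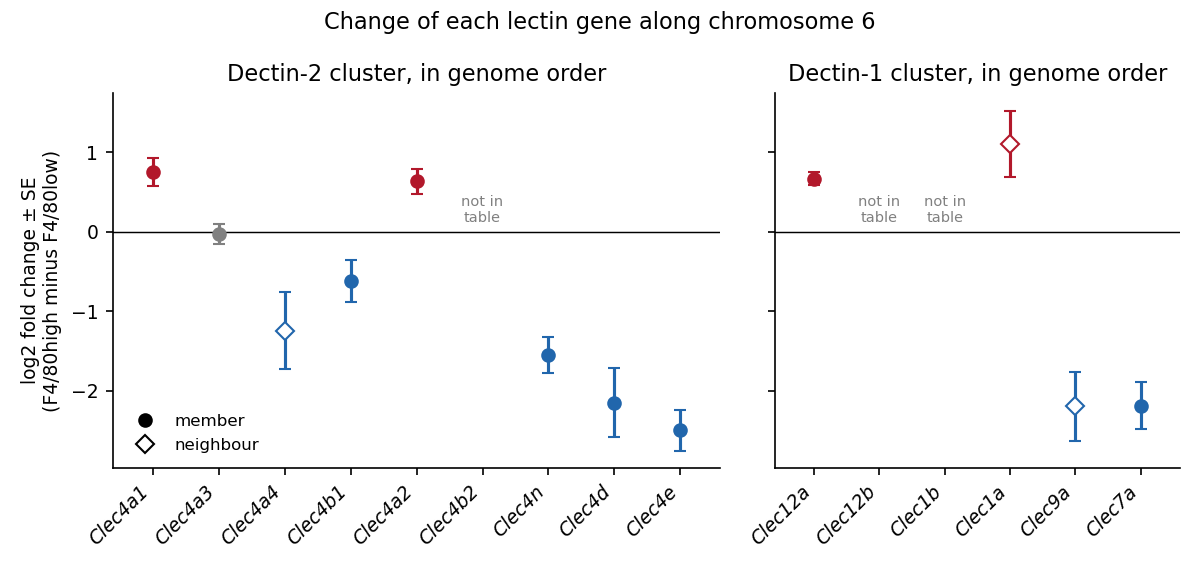
log2 fold change with its SE (F4/80high minus F4/80low) for each lectin gene of the Dectin-2 and Dectin-1 clusters, placed in genome order and not to distance. Red marks genes called higher, blue lower and grey not called, circles the listed receptors and open diamonds their neighbours. Clec4n, Clec4d and Clec4e, the last 3 genes of the Dectin-2 cluster, lie between -1.55 and -2.50.

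Both clusters held receptors that were higher and receptors that were lower, and their other genes are given here for their position. In the Dectin-2 cluster, 8 of 9 coding genes were in the table. The run Clec4n, Clec4d and Clec4e at its end was lower in F4/80high cells, while Clec4a1 at its start and Clec4a2 in its middle were higher. Between them Clec4a4 (DCIR2), a neighbour that was not on the list, was at 0.269 against 0.654 CPM. It was called lower in F4/80high cells, with a log2 difference of -1.24 (SE 0.48, edgeR adjusted p = 0.0638). In the Dectin-1 cluster, 4 of 6 coding genes were in the table. Clec12a was higher and Clec7a lower, and between them Clec9a, a receptor of conventional dendritic cells, was at 1.87 against 8.53 CPM and called lower (log2 difference -2.20, edgeR adjusted p = 0.00358). Clec1a, also between them, was at 2.18 against 1.03 CPM and called higher (log2 difference 1.11, edgeR adjusted p = 0.0603). Its levels were low and its groups overlapped, at 1.31, 2.91 and 2.33 CPM in F4/80high and 0.952, 0.615 and 1.51 CPM in F4/80low cells.

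Ratios between receptors within a library do not depend on scaling between libraries. The log2 ratio of Clec7a to Clec12a was -0.39, -1.20 and -0.90 in F4/80high and 2.52, 1.76 and 1.81 in F4/80low cells. That of Clec4e to Clec4a2 was -2.95, -2.67 and -2.86 against 0.14, 0.02 and 0.56. In every library of a group each of these ratios had the same sign, and the means differed by -2.86 and -3.07 log2 units (F4/80high minus F4/80low). Among the receptors that were lower, Clec4n over Clec4e was 1.41 ± 0.30 in F4/80high and 0.53 ± 0.19 in F4/80low cells (SD, n = 3 each). Clec4a1 over Clec4a3 was 1.05 ± 0.09 against 0.27 ± 0.12, whereas Clec4a1 over Clec4a2 was 0.82 ± 0.20 against 0.70 ± 0.21, within its spread. Of the 6 ratios compared, 4 reached the smallest two-sided p an exact permutation test of 3 against 3 can give, 0.1, or 0.15 after Benjamini-Hochberg adjustment. For Clec7a over Clec12a and Clec4e over Clec4a2 this p followed from the levels given above. There Clec7a and Clec4e were lower, and Clec12a and Clec4a2 higher, without overlap, so their ratios add no further test. Clec4d over Clec4e had an exact p of 0.2 and Clec4a1 over Clec4a2 one of 0.6.

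**Figure D3:**
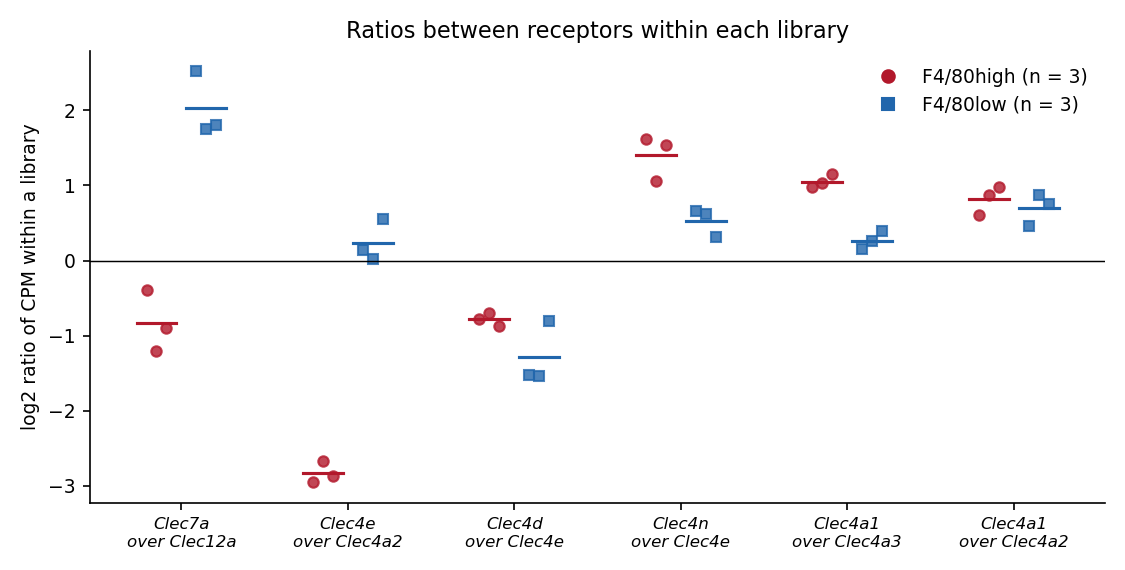
log2 ratio of the CPM of pairs of receptors within each library, F4/80high as red circles and F4/80low as blue squares (n = 3 each), with lines at the means. Clec7a over Clec12a runs from -1.20 to -0.39 in F4/80high and from 1.76 to 2.52 in F4/80low cells.

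Levels of different genes were set against each other as CPM per kilobase of exon, with all annotated exons of a gene merged. In F4/80low cells Clec7a was first at 211 ± 70.9, followed by Clec4n at 106 ± 27.8 and Clec4a1 at 53.5 ± 11.7 CPM per kilobase, and this order of the first 3 was the same with the canonical transcript as the length. In F4/80high cells Clec4a1 was first at 90.0 ± 16.0, and Clec4a2 at 46.3 ± 6.96 and Clec7a at 46.3 ± 15.2 CPM per kilobase followed, without a difference beyond their spread. There the first place depended on the length: with the canonical transcripts, Clec7a was at 173 and Clec4a1 at 154 CPM per kilobase, because the canonical Clec7a transcript is short. The 10 receptors summed to 326 ± 48.9 CPM per kilobase in F4/80high and 544 ± 91.9 in F4/80low cells over merged exons. Clec4a1 made up 27.7% of the sum in F4/80high cells, and Clec7a 38.6% of that in F4/80low cells. With the canonical transcripts Clec7a had the largest share in both, 29.1% in F4/80high and 62.8% in F4/80low cells.

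For each receptor the gene with the most similar profile over the 6 libraries was sought among 10079 others, by the distance between centred log2 CPM profiles. Clec7a was nearest to Csrnp1 (51.0 against 257 CPM), Clec4e to Ddit4 (8.54 against 60.7 CPM), Clec4d to Ndrg1 (29.4 against 121 CPM) and Clec4n to Dpep2 (36.8 against 96.9 CPM). Among those that were higher in F4/80high cells, Clec12a was nearest to Crat (84.6 against 52.4 CPM), Clec4a1 to Abcc5 (65.5 against 36.8 CPM) and Clec4a2 to the long noncoding RNA Gm44751 (14.004 against 8.70 CPM). Clec5a was nearest to Rbms1, Clec4a3 to Lars2 and Clec4b1 to Eps8l1. The distances ran from 0.05 for Clec5a to 0.48 for Clec4e, and all profiles share the same 6 libraries in 2 groups.

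Their signalling partners were mostly lower in F4/80high cells. Of 34 adaptors, kinases and transcription factors, 3 were called higher, 22 lower and 9 were not called, where 27.8% of all genes were higher and 27.1% lower. The median log2 difference was -0.38 against 0.01 over all genes. The 2 adaptors went different ways. Fcer1g, which carries the ITAM for the Dectin-2 group, was at 841, 815 and 833 CPM in F4/80high and at 614, 598 and 756 CPM in F4/80low cells. Each F4/80high library was above each F4/80low one, and the log2 difference was 0.34 (SE 0.11, edgeR adjusted p = 0.0324). This call was lost without F4/80low replicate 1 (adjusted p = 0.119) and without replicate 2 (0.113). Tyrobp, which carries it for Clec5a, was at 441, 391 and 453 CPM against 540, 520 and 587 CPM. Its groups were separate in the other direction, with a log2 difference of -0.36 (SE 0.10, edgeR adjusted p = 0.0150). Hcst, the related adaptor DAP10, was at 3.93 ± 0.57 against 4.79 ± 1.22 CPM and was not called (adjusted p = 0.366).

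Syk, the kinase that the ITAMs of Fcer1g and Tyrobp recruit, was at 228, 190 and 242 CPM in F4/80high and at 398, 454 and 460 CPM in F4/80low cells. Its log2 difference was -0.99 (SE 0.11, edgeR adjusted p = 0.000206). Below it, Prkcd, the gene of PKCdelta, had a log2 difference of -1.22 (332 ± 17.3 against 774 ± 30.5 CPM). Card9 differed by -0.40 (85.2 ± 1.87 against 112 ± 2.45 CPM) and Malt1, its partner protease, by -2.26 (25.1 ± 3.31 against 120 ± 19.1 CPM). Ikbkb, a kinase that releases NF-kappaB, differed by -1.33 (91.6 ± 4.07 against 231 ± 9.12 CPM). All 4 were called, at edgeR adjusted p-values from 7.65e-06 to 0.00220.

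The lowest adjusted p of the list belonged to Fgr, a Src family kinase, at 57.8, 61.3 and 47.7 CPM against 435, 454 and 474 CPM (log2 difference -3.03, SE 0.12, edgeR adjusted p = 1.60e-06). Ptpn6, the phosphatase SHP-1 that ITIM receptors recruit, was at 498 ± 40.5 against 641 ± 31.0 CPM (log2 difference -0.36, edgeR adjusted p = 0.0131). It was thus lower where Clec12a and Clec4a2 were higher. Nfatc2, a transcription factor, was higher in F4/80high cells at 135 ± 28.6 against 88.0 ± 10.6 CPM (log2 difference 0.61, adjusted p = 0.0121). Vav1, an exchange factor, was at 324 ± 16.3 against 275 ± 11.4 CPM, and its call (log2 difference 0.24, adjusted p = 0.0444) was lost without F4/80high replicate 1 or 3, or F4/80low replicate 1 or 3.

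**Figure D4:**
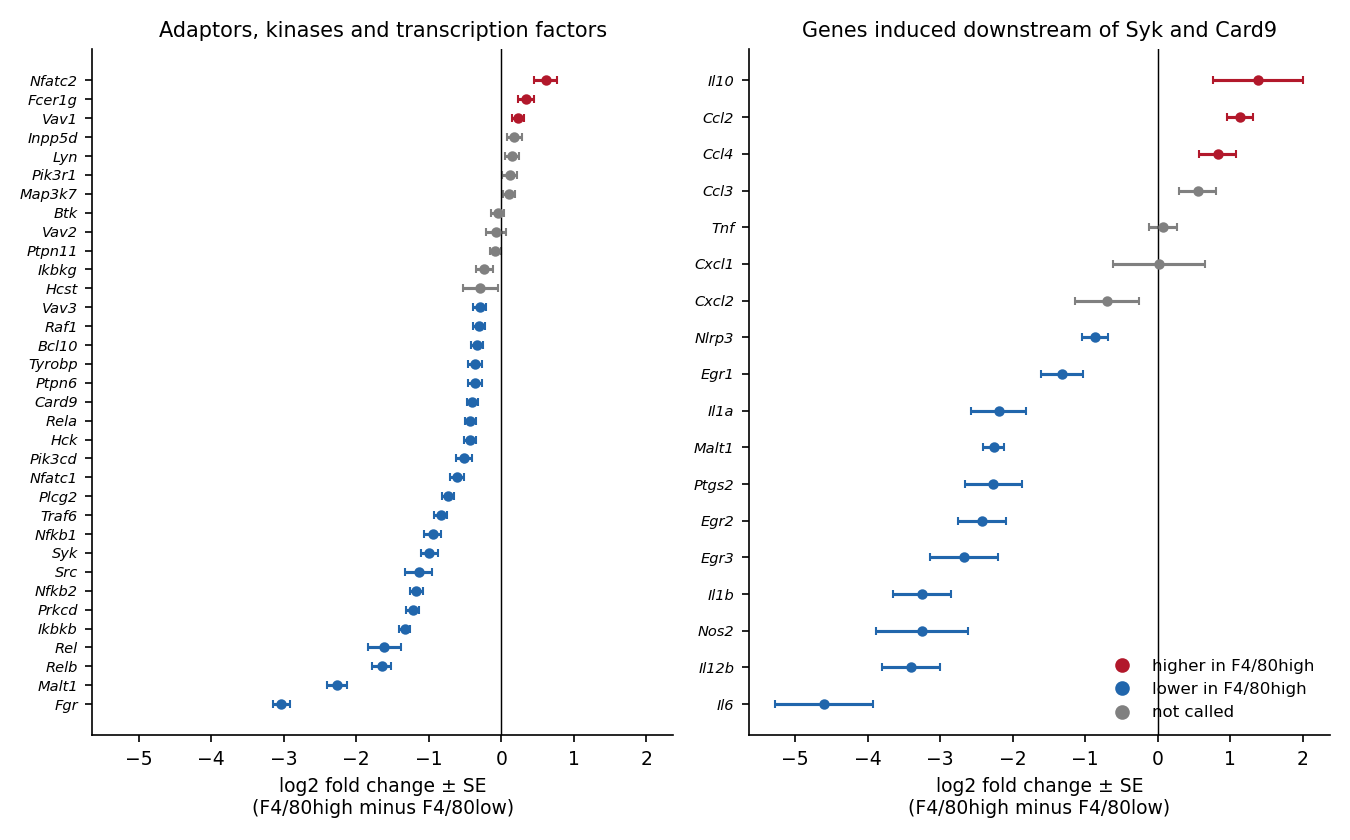
log2 fold change with its SE (F4/80high minus F4/80low). The left side holds the 34 adaptors, kinases and transcription factors, and the right side the 18 measured genes listed as induced downstream of Syk and Card9. Red marks genes called higher, blue lower and grey not called, and Malt1 is on both lists. Points run from -3.03 for Fgr to 0.61 for Nfatc2 on the left, and most lie below 0 on both sides.

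Of 20 genes listed as induced through Syk and Card9, 18 were in the table. Of these, 3 were called higher, 11 lower and 4 were not called, where 27.8% of all genes were higher and 27.1% lower. Malt1, 1 of the 11 that were lower, is a partner of Card9 and was also counted among the signalling partners above. Their median log2 difference was -1.76. Il1b, the gene of interleukin-1beta, was at 240, 98.1 and 107 CPM in F4/80high and at 1888, 946 and 1392 CPM in F4/80low cells, a log2 difference of -3.25 (SE 0.40, edgeR adjusted p = 0.000289). Il12b was at 1.55 ± 0.53 against 16.2 ± 8.11 CPM (-3.41, adjusted p = 0.000235), and the early response factor Egr2 at 13.01 ± 6.93 against 69.3 ± 14.1 CPM (-2.43, adjusted p = 0.000524). Of its 5 chemokine genes, 2 were called higher and 3, Cxcl1, Cxcl2 and Ccl3, were not called. Ccl2, which attracts monocytes, was at 328, 361 and 286 CPM against 126, 125 and 194 CPM, and Ccl4 at 103 ± 21.5 against 58.2 ± 19.3 CPM, with log2 differences of 1.13 and 0.83 (edgeR adjusted p = 0.00120 and 0.0273). Many other receptors induce these genes as well, and the dendritic cell and monocyte markers given above were also lower in F4/80high cells.

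Endogenous ligands were few in the list and went both ways. Of 7 genes, 6 were in the table, of which 2 were higher, 2 lower and 2 were not called, with a median log2 difference of 0.10. This split is near that of all genes, of which 27.8% were higher and 27.1% lower. Vim, the filament protein vimentin, was at 1429 ± 200 against 2988 ± 290 CPM (-1.06, edgeR adjusted p = 0.000338), and Anxa1 at 111 ± 26.3 against 170 ± 20.8 CPM (-0.62, adjusted p = 0.0169). Tpm1, a tropomyosin, was at 97.0 ± 23.0 against 42.3 ± 5.56 CPM (1.20, edgeR adjusted p = 0.000722). Anxa5, at 441 ± 23.3 against 370 ± 40.1 CPM (0.25, adjusted p = 0.0718), lost its call without F4/80high replicate 1 or 2, or F4/80low replicate 1 or 2.

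A further list of symbols taken as C-type lectins was split more widely. Of its 39 symbols, 28 were in the table, with 5 called higher, 18 lower and 5 not called, and a median log2 difference of -1.54. Of all genes, 27.8% were called higher and 27.1% lower. Clec10a (MGL1), a galactose receptor, was at 11.6, 11.1 and 9.05 CPM in F4/80high and at 145, 124 and 126 CPM in F4/80low cells (log2 difference -3.64, edgeR adjusted p = 1.60e-06). Mgl2, its close relative, was at 29.3 ± 8.64 against 476 ± 88.2 CPM (-4.03). Cd209a, a DC-SIGN relative that also stood among the dendritic cell markers, was at 1.93 ± 0.97 against 128 ± 16.3 CPM (-6.08), and Klrd1, the CD94 chain of natural killer cell receptors, at 1.13 ± 0.34 against 61.4 ± 7.64 CPM (-5.79). The T and NK cell markers, 7 of 8 in the table, summed to 3.19 to 9.32 CPM in F4/80high and 5.06 to 19.3 CPM in F4/80low libraries, with 1 lower and 6 not called.

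Of the lectins that were higher in F4/80high cells, Mrc1, the mannose receptor CD206, was at 1453, 1030.3 and 1631 CPM against 257, 202 and 224 CPM, a log2 difference of 2.59 (SE 0.18, edgeR adjusted p = 1.75e-05). Cd93 was at 510 ± 68.8 against 140 ± 35.5 CPM (1.87), Cd72, an ITIM lectin, at 358 ± 56.0 against 174 ± 9.38 CPM (1.04), and Cd302 at 48.0 ± 10.1 against 32.04 ± 2.45 CPM (0.58). Clec4f, a lectin that marks resident Kupffer cells of the mouse liver, was at 1.284 ± 1.32 against 0.51 ± 0.07 CPM and was not called. The 8 Kupffer cell markers summed to 103 to 125 CPM in F4/80high and 93.5 to 99.6 CPM in F4/80low libraries. Of them, 4 were higher, 3 lower and 1 was not called, so the close sums held genes that moved in opposite directions. Folr2 was at 79.6 ± 21.3 against 4.70 ± 3.22 CPM (4.11). Id3 was at 9.02 ± 2.79 against 50.4 ± 8.20 CPM (-2.49).

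**Figure D5:**
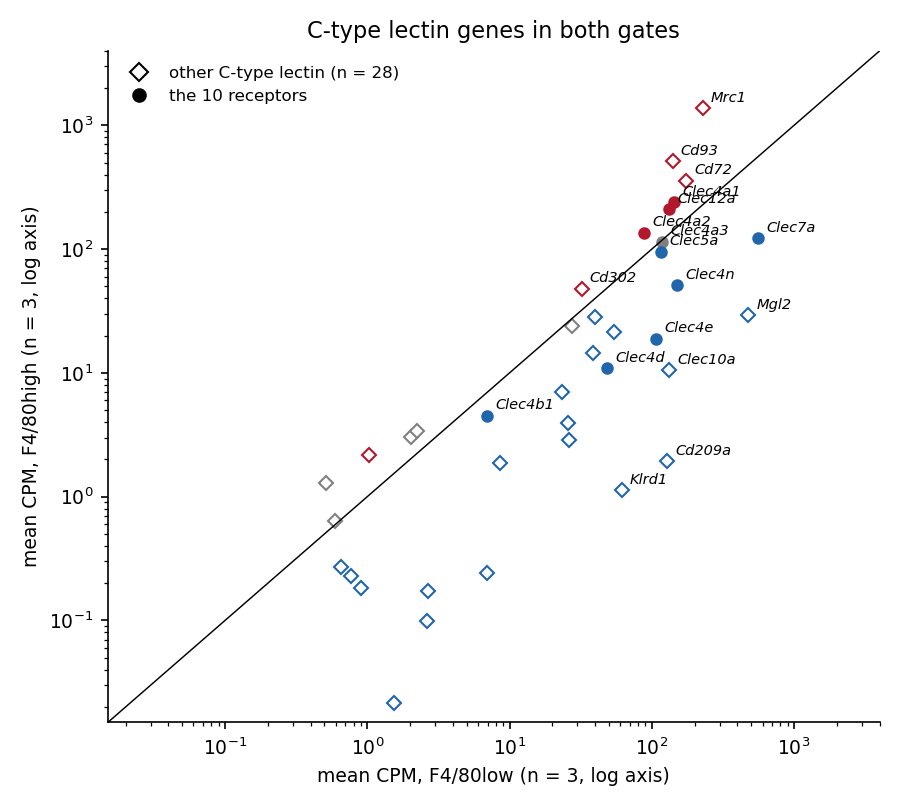
Mean CPM in F4/80low (x axis) against F4/80high cells (y axis), both log axes and n = 3. Filled circles are the 10 receptors and open diamonds 28 further genes listed as C-type lectins. Red marks genes called higher in F4/80high, blue lower and grey not called. The line marks equal levels, with Mrc1 far above it and Clec7a, Clec4n, Clec4e and Clec4d below it.

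The remaining marker lists did not all move alike. Kit was at 1.49 ± 0.27 CPM in F4/80high and 67.2 ± 17.5 CPM in F4/80low cells, in a list of eosinophil, basophil and mast cell markers of which 2 of 3 in the table were lower in F4/80high cells. Cdh1 was at 9.24 ± 1.97 against 234 ± 39.3 CPM and Epcam at 0.26 ± 0.10 against 13.9 ± 5.36 CPM. These were the 2 markers of epithelium and tumor in the table, and both were called lower (edgeR adjusted p = 1.94e-06 and 2.41e-05). Their sums were 8.30 to 11.8 CPM in F4/80high and 197 to 281 CPM in F4/80low libraries. Of 3 endothelial markers in the table, 2 were lower and 1 was higher, with sums of 15.9 to 18.4 against 38.9 to 43.2 CPM. Of 5 B cell markers, 1 was higher, with Cd79b at 19.3 against 5.76 CPM. No hepatocyte or erythroid marker was called, and their sums reached 9.81 and 100.1 CPM at most. Their part in the receptor differences was not tested.

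In the lymphocyte table, from another library kit and scaled separately, all 10 receptors had a row and most were at 0 in the 12 libraries of 8795721 to 14386834 estimated counts. Of 120 receptor and library pairs, 93 were at 0 and 20 were above 3 counts. A count of 0 allows up to 3 counts, here 0.209 to 0.341 CPM, for counting error only.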

How the data were processed

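RNA sequencing of 6 macrophage libraries (F4/80high and F4/80low, 3 each) was analysed, with 12 lymphocyte libraries for description. Per the labels, macrophage libraries were poly(A)-selected and directional (a Nextflex Rapid Directional kit). The submitters' processing notes name Trim Galore, Salmon 1.10.0, R 4.3.1, DESeq2 1.40.2 and GRCm39 for the macrophages and Salmon 1.5.0 for the lymphocytes. The macrophage annotation release is not given in the sources used here. The values deposited by the authors are estimated counts per gene, already whole numbers and not normalized. The macrophage table starts at a total of 37 counts per gene, so low genes had been left out by the authors. Salmon divides reads shared by similar genes, which can blur close paralogues.

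Gene names and positions came from GENCODE vM39 (13726 of 13759 identifiers matched). Counts were scaled by TMM, filtered with filterByExpr (all 13759 genes passed) and tested with edgeR 4.0.16 (glmQLFTest, group only, R 4.3.3). P-values were adjusted by Benjamini and Hochberg over all genes, and a gene was called below 0.1. The SE is the log2 fold change divided by the root of F. Alternatives used DESeq2 1.42.0, limma 3.58.1, other scalings, filters, thresholds, a replicate block and fits without each library. log2 CPM profiles used a prior count of 2. Figures were drawn with matplotlib 3.10.9.

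The receptors and gene lists were chosen with earlier results of these data known. Besides the receptors, the text names, from each list of partners, the 4 called genes per direction with the lowest adjusted p and a mean of at least 5 CPM. It also names the adaptors and enzymes Fcer1g, Tyrobp, Hcst, Syk, Ptpn6 and Card9, and the gene nearest to each receptor. Of the leading cell type markers only some are named, after their values were seen. Adgre1, Clec1a, Clec4a4, Clec9a, Clec4f, Cxcl1, Cxcl2 and Ccl3 are named for their role or position, after their values were seen. Protein sequences were not used here.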

Additional observations from a re-analysis of the deposited data

Results flagged for a closer look

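Clec4e was above 3 estimated counts in all 3 libraries of NK cells from metastasis-free liver, a signal outside the macrophage comparison. It was at 69, 61 and 24 estimated counts there, or 5.24, 4.68 and 1.88 CPM, where a count of 0 allows 0.228 to 0.235 CPM. In the other lymphocyte groups it passed 3 counts in 1 of 3 CD49a- NK libraries from metastases (47 counts) and in 2 of 3 ILC1 libraries from metastasis-free liver (27 and 5 counts). The difference between these groups was not tested. ILC1 replicate 2 also held 25 counts of Clec7a and 20 of Clec4a1, and the source of these counts was not tested.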

How the results depend on the processing

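Of 180 counts of called genes recomputed under alternatives, 164 stayed within 1.5 times the reported count. Of 130 receptor values, 119 kept their direction and their side of the threshold. Because all 13759 genes passed the filter, the fit without a filter repeated the main fit. Its values are among those that stayed the same by construction. Clec4a3, which was not called, turned sign to 0.12 without a scaling factor and ranged from -0.13 to 0.085 when 1 library was left out. Without a scaling factor Clec4b1 and Clec5a lost their calls, which left 4 receptors lower, and 7 adaptors and kinases were called higher. With at least 5 CPM in 3 libraries, 16 other lectins were left to test and 11 were lower. At an adjusted p below 0.05, 1 ligand was higher. With a minimum of 2-fold, 0 receptors, 0 adaptors and kinases and 1 ligand were higher, 8 adaptors and kinases and 1 ligand were lower, and 1523 of all genes were higher and 1507 lower. Leaving out 1 library gave 1 to 4 adaptors and kinases, 2 to 5 output genes and 1 to 2 ligands called higher, with the lowest adaptor count and the highest output count both without F4/80low replicate 1, and 4 to 6 receptors called lower, with 4 without F4/80low replicate 3. The cause of these shifts was not tested.

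The replicate numbers are shared between groups, but over all genes same-numbered libraries did not all deviate together (r = 0.17, -0.01 and 0.03 for numbers 1 to 3), and not every library correlated best with its own number. Single lists did differ by number: the erythroid markers summed to 42.6 and 100.1 CPM in replicate 3 of the 2 groups and to 1.49 to 3.84 CPM in the other libraries. Cxcl2 was lowest in replicate 2 of both groups, at 210, 79.8 and 165 CPM in F4/80high and 294, 108 and 337 CPM in F4/80low cells. Clec7a was highest in replicate 1 and lowest in replicate 2 of both groups. Clec4a1 was lowest in replicate 2 of F4/80high but replicate 1 of F4/80low cells. Whether a shared number marks a shared preparation was not tested. With the replicate number as a block, 3 receptors were higher and 6 lower, as without it, 4 output genes were higher and 12 lower, and 3791 of all genes were higher and 3721 lower. Clec4b1 had the fewest counts of the receptors, 88 to 213 per library.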
